A study of Saccharomyces cerevisiae with 12 samples.

Results

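Glycerol is a 3-carbon compound that budding yeast makes, retains, exports, takes up and burns, and 9 genes that carry out these steps were followed here among 6645 genes of a 3′ RNA-seq table. They are listed by name for their roles, and the list was drawn up with earlier results of these data known. The haploid wild type BY4741 (genotype given as MATα leu2Δ3 his3Δ1 met15Δ0 ura3-0) carried a plasmid for Grx1-roGFP2, a fluorescent sensor that reports the redox state of the cytosolic glutathione pool. All cells grew in casein amino acid medium with glucose, and living cells were sorted by their sensor signal into an oxidized and a reduced subpopulation. The 4 groups were oxidized and reduced cells after 48 hr and oxidized and reduced cells after 72 hr, with 3 biological replicates each. The gates divide cells by their sensor signal alone, so each group is a slice of a mixed population and not a treatment, and in such bulk samples fewer cells that express a gene cannot be told apart from less RNA per cell.

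The deposited unit is PPM, the deduplicated reads that fall near a gene's 3′ end per 1000000 reads of the library. Every gene is read in a window of the same length, so PPM is not scaled to gene length and levels of different genes can be set side by side. The libraries were shallow, with 90403 to 189735 reads in oxidized cells at 48 hr, 119178 to 241084 in reduced cells at 48 hr, 138631 to 169638 in oxidized cells at 72 hr and 141471 to 201379 in reduced cells at 72 hr. A gene with 0 reads may still have had up to 12.4 to 33.2 PPM, the level of 3 reads, depending on the library, and such limits and all counting intervals below cover counting error only. The 6 a-cell markers summed to 1054 to 1565 PPM in every library and the 4 alpha-cell markers to 35.3 to 199 PPM, although the genotype as given names the alpha mating type. Of the 4 marker genes of the genotype, MET17 (met15) had 0 reads and LEU2 8 reads in all 12 libraries together, whereas HIS3 had 398 and URA3 2872, and the origin of these was not tested. The 9 daughter-specific transcripts, which mark newborn cells, summed to 1231 to 1338 PPM in oxidized and 884 to 1200 PPM in reduced cells at 48 hr, and to 1102 to 1235 PPM in oxidized and 763 to 1099 PPM in reduced cells at 72 hr. At neither age did these sums overlap, but at 72 hr the nearest libraries, with 1102.35 PPM (oxidized) and 1098.8 PPM (reduced), were almost level. By the limma tests described below, 0 of the 9 genes passed at 48 hr, at 72 hr or for the average of both. Positive log2 fold changes numbered 7, 8 and 9 in these comparisons. None of the 9 genes was at 0 in a group. Under the microscope, the paper counted more bud scars per cell in the oxidized subpopulation than in the reduced one. It also found budding to be less frequent in the oxidized subpopulation. The part of daughter cells in the differences below was not tested.

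In yeast, glycerol is made from the glycolytic intermediate dihydroxyacetone phosphate. Gpd1 and Gpd2 reduce it to glycerol 3-phosphate with NADH, and the phosphatases Gpp1 and Gpp2 then release glycerol. The reaction serves both osmotic balance and the disposal of surplus NADH. Glycerol leaves through the channel Fps1 and is taken up with protons by the symporter Stl1. To be used as a carbon source it is phosphorylated by the glycerol kinase Gut1 and oxidized by Gut2, a flavoprotein of the mitochondrial inner membrane that hands the electrons to the respiratory chain. Gpd1 or Gpd2 and Gut2 together form a shuttle that carries electrons from cytosolic NADH into mitochondria. A second route runs through the glycerol dehydrogenase Gcy1 and the dihydroxyacetone kinases Dak1 and Dak2. Several of these genes are repressed while glucose lasts.

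Averaged over both ages, the transcripts of the importer gene STL1, the kinase gene GUT1 and the dehydrogenase genes GUT2 and GPD1 were lower in the oxidized subpopulation, and GPD2, the other gene for the first step of synthesis, did not pass. At 48 hr, 4 of the 8 members tested were lower in oxidized cells (STL1, GUT2, GUT1 and GPD1), against 2.43% of the 4776 genes tested, and 0 were higher, against 1.42% of the genes tested. At 72 hr, 2 were lower (GPD1 and GUT2, against 4.75% of genes) and 0 higher (against 4.86%). Averaged over both ages, from the same 12 libraries, 4 were lower (GUT2, GPD1, STL1 and GUT1, against 6.97%) and 1, GCY1, was higher (against 4.9%). Tests were made with limma on log2(PPM + 10) over all genes that averaged 20 PPM or more, with Benjamini-Hochberg adjustment and a threshold of 0.05, and differences are oxidized minus reduced. Adding 10 PPM shrinks the differences of rare transcripts such as STL1. The median log2 fold change of the 8 members was -0.59 at each age, and -0.61 for the average, beside -0.07, -0.11 and -0.08 over all genes tested. In each of these comparisons 7 members had a negative and 1, GCY1, a positive log2 fold change. DAK2 was the only one of the 9 that the filter on low values removed. Without reduced 48 hr replicate 1 the count at 48 hr was 1, STL1, and without oxidized 48 hr replicate 3 or reduced 48 hr replicate 3 it was 2.

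**Figure D1:**
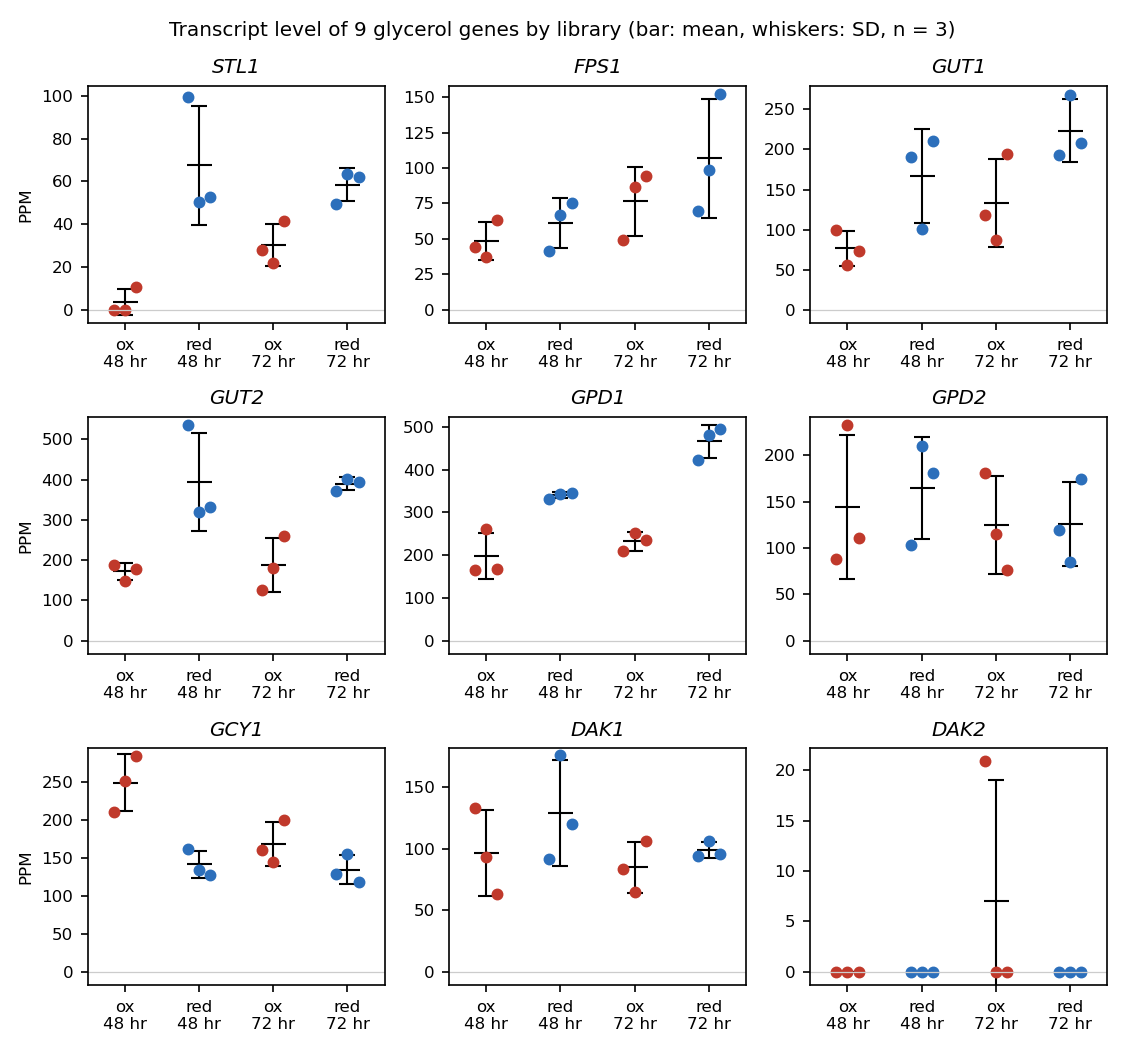
Level of the 9 glycerol genes in PPM (y axis) in each library, grouped as oxidized 48 hr, reduced 48 hr, oxidized 72 hr and reduced 72 hr (x axis). Red points are oxidized and blue points reduced libraries, the horizontal bar is the mean and the whiskers are the SD of 3 libraries. STL1, GUT2 and GPD1 lay lower in all oxidized than in all reduced libraries at both ages, and DAK2 was above 0 in 1 library. Of all genes tested, 10.7% lay lower in this way at 48 hr and 15.2% at 72 hr.

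Averaged over the 12 libraries, the order of levels was GPD1 (309 PPM), GUT2 (286 PPM), GCY1 (173 PPM), GUT1 (150.1 PPM), GPD2 (139.9 PPM), DAK1 (102 PPM), FPS1 (73.2 PPM), STL1 (39.9 PPM) and DAK2 (1.74 PPM). Set among the genes tested, GPD1 stood above 87.4% of them, FPS1 above 50.4% and STL1 above 24.6%. Neighbours in this order were not separable in all groups. In oxidized cells at 48 hr the mean of GCY1 (249 ± 37.3 PPM) stood above those of GPD1 (199 ± 54.1 PPM) and GUT2 (172 ± 20.4 PPM; SD, n = 3 each). In replicate 2 of that group, however, GPD1 had 261 PPM and GCY1 252 PPM. In reduced cells at 72 hr GPD1 (466 ± 39.0 PPM) and GUT2 (390 ± 15.7 PPM) stood far above GCY1 (134 ± 19.1 PPM; SD, n = 3 each). These orders were not tested.

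STL1 (YDR536W, chromosome IV, 1508005 to 1509714 on the plus strand of sacCer3), the proton-coupled glycerol importer of the plasma membrane, had the largest log2 fold change of the 8 members at 48 hr and for the average, but not at 72 hr. At 48 hr it had 0, 0 and 10.5 PPM in oxidized cells, against 99.6, 50.3 and 52.6 PPM in reduced cells. Summed over libraries, oxidized cells gave 2 reads and reduced cells 37, so that the oxidized level was 0.0688 times the reduced one (95% counting interval 0.00804 to 0.267). The groups did not overlap, and in oxidized replicates 1 and 2 the transcript was not detectable at their depth. The difference amounted to -2.55 on the log2 scale (standard error 0.49, limma adjusted p = 3.3e-04) and passed with each library left out in turn. At 72 hr oxidized cells had 27.9, 21.6 and 41.3 PPM, against 49.7, 63.6 and 62.0 PPM in reduced cells. The groups again did not overlap, but the log2 fold change of -0.79 did not pass (95% interval -1.77 to 0.20, limma adjusted p = 0.39). The size of the fitted change at 48 hr depends on the pseudocount, with -4.85 at 1 PPM and -1.12 at 50 PPM, and so does the average of -1.67 (standard error 0.35, limma adjusted p = 3.3e-04), with -2.91 and -0.78, while the call held at both settings. By reads at 72 hr, 14 in oxidized against 30 in reduced cells, the level was 0.538 times as high (0.263 to 1.05).

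Between the ages, the values of STL1 were further apart in oxidized than in reduced cells. The oxidized level was 30.3 ± 10.02 PPM at 72 hr and 3.51 ± 6.09 PPM at 48 hr, while reduced cells had 58.4 ± 7.63 PPM at 72 hr and 67.5 ± 27.8 PPM at 48 hr (SD, n = 3 each). The change with age in oxidized cells was 1.63 on the log2 scale (95% interval 0.65 to 2.62), and its limma adjusted p over all genes was 0.14. The test of whether the redox difference itself changed with age gave 1.76 (95% interval 0.37 to 3.16, limma adjusted p = 0.36), so no change of the redox difference was established for STL1.

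FPS1 (YLL043W, chromosome XII, 49938 to 51947, plus strand) encodes the channel through which glycerol leaves the cell. Unlike STL1 it was detected in every library, at 37.3 to 63.2 PPM in oxidized and 41.5 to 75.2 PPM in reduced cells at 48 hr, and at 48.8 to 94.3 PPM in oxidized and 69.5 to 152 PPM in reduced cells at 72 hr. The groups overlapped at both ages. The log2 fold changes of FPS1 were -0.28 at 48 hr (95% interval -1.06 to 0.49) and -0.42 at 72 hr (-1.19 to 0.36), and neither passed (limma adjusted p = 0.82 and 0.61). Its 3′ window overlaps by 260 bp that of ATG10 on the opposite strand, which had 15 reads in all libraries beside 138 of FPS1. Whether strand was used in counting is not given, and the part of that neighbour in the reads of FPS1 was not tested.

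GUT1 (YHL032C, chromosome VIII, 36379 to 38508, minus strand) encodes glycerol kinase, the entry to glycerol catabolism. At 48 hr it had 99.6, 55.9 and 73.8 PPM in oxidized cells, against 191, 100.7 and 211 PPM in reduced cells. All oxidized libraries lay below all reduced ones, though the highest oxidized value, 99.6 PPM, was just below the lowest reduced value, 100.7 PPM. On the log2 scale GUT1 differed by -1.01 (standard error 0.31, limma adjusted p = 0.048). This call is close to the threshold: it was lost in 13 of 19 alternatives, among them a pseudocount of 1 PPM (adjusted p = 0.090). It was also lost without oxidized replicate 2 or 3 or reduced replicate 1 or 3 of that age, with log2 fold changes of -0.82 to -0.999 (adjusted p 0.11 to 0.27). Leaving out oxidized 72 hr replicate 1 or 3 or any reduced 72 hr library, which affects only the shared spread, ended it with adjusted p of 0.052 to 0.061. At 72 hr oxidized cells had 119, 86.6 and 195 PPM, against 194, 269 and 208 PPM in reduced cells. Oxidized replicate 3 stood just above reduced replicate 1, so that the groups overlapped, and the log2 fold change of -0.76 did not pass (95% interval -1.38 to -0.15, limma adjusted p = 0.12). Without that oxidized library it was -1.05 (limma adjusted p = 0.047). Averaged over both ages GUT1 was lower by -0.88 on the log2 scale (standard error 0.22, limma adjusted p = 0.0028). This call held in all 18 alternative fits, but the change was smaller than 2-fold.

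GUT2 (YIL155C, chromosome IX, 51759 to 53708, minus strand), the mitochondrial glycerol 3-phosphate dehydrogenase, was lower in oxidized cells at both ages. At 48 hr it had 188, 149 and 179 PPM in oxidized cells, against 535, 319 and 331 PPM in reduced cells. At 72 hr it had 126, 180 and 259 PPM in oxidized cells, against 372, 403 and 394 PPM in reduced cells. No oxidized library reached the lowest reduced library at either age. The log2 fold changes were -1.12 at 48 hr (standard error 0.24, limma adjusted p = 0.0017) and -1.07 at 72 hr (0.24, adjusted p = 0.0011). At 48 hr the highest value was in reduced replicate 1, and without that library the log2 fold change was -0.88 and did not pass (limma adjusted p = 0.073). The average of both ages was -1.09 (standard error 0.17, limma adjusted p = 1.9e-06), and the difference between the ages was 0.05 (95% interval -0.63 to 0.73).

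GPD1 (YDL022W, chromosome IV, 411825 to 413000, plus strand) encodes the cytosolic, NADH-consuming glycerol 3-phosphate dehydrogenase, which is also imported into peroxisomes. At 48 hr it had 166, 261 and 169 PPM in oxidized cells, against 332, 344 and 346 PPM in reduced cells. At 72 hr the values were 209, 252 and 236 PPM in oxidized cells, against 422, 481 and 496 PPM in reduced cells. The groups were apart at both ages, and the reduced libraries at 48 hr were close together. The difference of GPD1 on the log2 scale was -0.78 at 48 hr (standard error 0.22, limma adjusted p = 0.029) and -0.97 at 72 hr (0.22, adjusted p = 0.0011). At 48 hr the call was lost without any one of 5 libraries of that age, all but oxidized replicate 2 (limma adjusted p 0.083 to 0.12), with log2 fold changes of -0.67 to -0.80. At 72 hr it held in all 19 alternative fits, and so did the average of -0.88 (standard error 0.15, limma adjusted p = 2.1e-05) in all 18. Both changes were smaller than 2-fold.

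GPD2 (YOL059W, chromosome XV, 217126 to 218448, plus strand) is the paralog of GPD1 and is best known for redox balance without oxygen. It had 88.5 to 233 PPM in oxidized and 104 to 210 PPM in reduced cells at 48 hr, and 76.6 to 181 PPM in oxidized and 84.8 to 175 PPM in reduced cells at 72 hr. The groups overlapped at both ages. Its log2 fold changes of -0.24 (95% interval -0.90 to 0.42) and -0.04 (-0.70 to 0.62) did not pass. Within a library, GPD1 stood 1.88, 1.12 and 1.52 times as high as GPD2 in oxidized cells at 48 hr, against 3.20, 1.64 and 1.92 times in reduced cells. At 72 hr the ratios were 1.15, 2.19 and 3.08 in oxidized cells, against 3.54, 5.67 and 2.84 in reduced cells. These ratios overlapped between the subpopulations at both ages and were not tested.

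In the second route, the first gene had the opposite sign. GCY1 (YOR120W, chromosome XV, 551114 to 552052, plus strand), an aldo-keto reductase that acts as glycerol dehydrogenase, had 210.2, 252 and 285 PPM in oxidized cells at 48 hr, against 162, 134 and 128 PPM in reduced cells. The groups did not overlap, but the log2 fold change of 0.77 missed the threshold (95% interval 0.25 to 1.29, limma adjusted p = 0.091). At 72 hr it had 160, 144 and 200 PPM in oxidized cells, against 129, 156 and 118 PPM in reduced cells. Those groups overlapped, and the log2 fold change was 0.30 (95% interval -0.22 to 0.82, limma adjusted p = 0.58). Averaged over both ages GCY1 was higher in oxidized cells by 0.54 (standard error 0.18, limma adjusted p = 0.045). The call was lost in 9 of 18 alternative fits, while the value stayed between 0.44 and 0.61, smaller than 2-fold. Of these, 8 left out a library, replicate 2 or 3 of either group at 48 hr or replicate 1 or 3 of either group at 72 hr (adjusted p 0.0629 to 0.132). The 3′ window of GCY1 overlaps by 154 bp that of PFY1, the profilin gene, on the opposite strand. PFY1 had 1173 reads in all beside 318 of GCY1, and whether strand was used in counting is not given in the sources used here, so GCY1 is uncertain. PFY1 itself had a log2 fold change of -0.25 for the average (95% interval -0.50 to 0.00, limma adjusted p = 0.22). The part of its reads in the values of GCY1 was not tested.

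DAK1 (YML070W, chromosome XIII, 133475 to 135229, plus strand) and DAK2 (YFL053W, chromosome VI, 23423 to 25198, plus strand) encode dihydroxyacetone kinases, which follow Gcy1. DAK1 had 63.2 to 133 PPM in oxidized and 91.3 to 176 PPM in reduced cells at 48 hr, and 64.9 to 106 PPM in oxidized and 94.3 to 106 PPM in reduced cells at 72 hr. Its groups overlapped, and its log2 fold changes of -0.40 (95% interval -1.06 to 0.27) and -0.22 (-0.88 to 0.45) did not pass. DAK2 had 0 reads in 11 libraries and 3 reads, 20.9 PPM, in oxidized replicate 1 at 72 hr, which is at the level of the detection limit. Between these kinases, DAK1 alone was detected in every library.

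**Figure D2:**
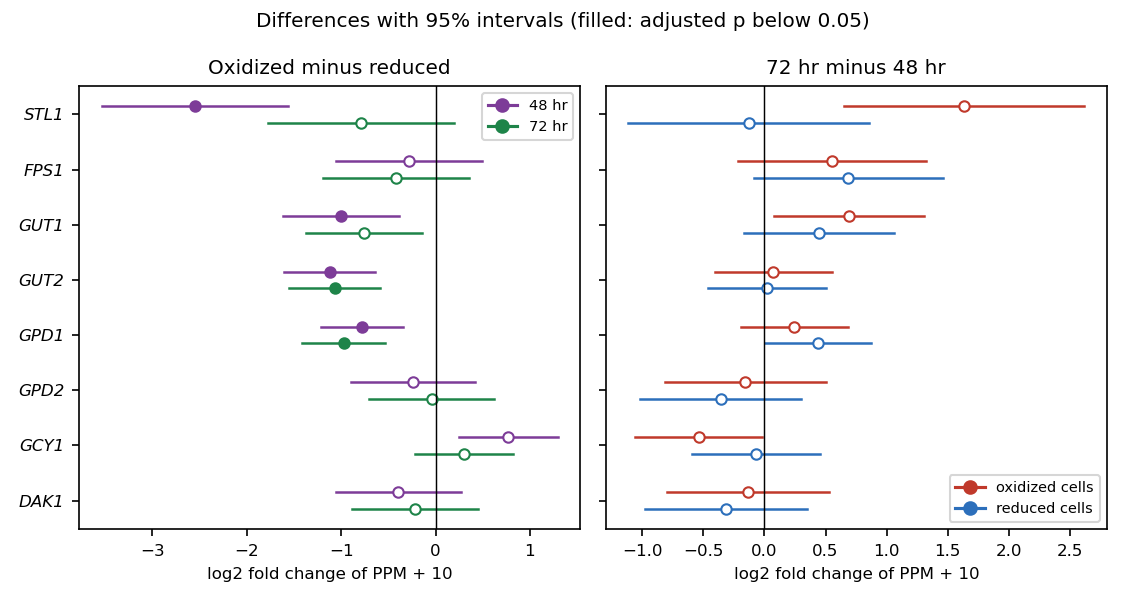
Log2 fold change of PPM + 10 (x axis) with its 95% interval for the 8 members tested (y axis). The left panel shows oxidized minus reduced cells at 48 hr (purple) and 72 hr (green), the right panel 72 hr minus 48 hr in oxidized (red) and reduced (blue) cells, and filled points had a limma adjusted p below 0.05. Filled points occur only in the left panel, for STL1, GUT1, GUT2 and GPD1 at 48 hr and for GUT2 and GPD1 at 72 hr.

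The overlap of single libraries, a description without a test, gave longer lists than limma. At 48 hr all oxidized libraries lay below all reduced ones for STL1, GUT1, GUT2 and GPD1, 4 of 8 members, beside 10.7% of the genes tested, and above them for GCY1, which limma did not call at that age, 1 of 8, beside 6.76%. At 72 hr they lay below for STL1, which limma did not call at that age, GUT2 and GPD1, 3 of 8, beside 15.2%, and above for 0, beside 10.9%.

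No member changed with age past the threshold. In oxidized cells, 72 hr minus 48 hr, limma called 0 of 8 members lower (0.272% of genes were called lower) and 0 higher (0.168%), and 3 had an unadjusted p below 0.05, beside 9.9% of all genes. These were STL1, described above, GUT1 with a log2 fold change of 0.69 (95% interval 0.07 to 1.30, adjusted p = 0.41) and GCY1 with -0.54 (-1.06 to -0.02, adjusted p = 0.48). In reduced cells 0 of 8 were called lower (1.76% of genes) or higher (0.565%), and 1 had an unadjusted p below 0.05 (12% of all genes), GPD1 with 0.44 (95% interval 0.00 to 0.88, adjusted p = 0.41). For the change of the redox difference with age, 0 of 8 were lower (0.0209% of genes) or higher (0.754%), and STL1 alone had an unadjusted p below 0.05 (9% of all genes). The median of the members was 0.16 in oxidized and -0.02 in reduced cells, beside 0.08 and 0.10 over all genes. With 3 libraries a group the intervals are wide, and these counts do not show that the members were alike at both ages.

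The regions upstream of the 4 members lower in oxidized cells are shown because limma called these genes lower together. Each is a stretch of 300 bases that starts 400 bases before the start codon, read 5′ to 3′ on the coding strand of the R64 genome, the assembly behind sacCer3. Capitals mark matches, on either strand, to AGGGG (the stress response element bound by Msn2 and Msn4), CCAAT (Hap2/3/4/5, activators of respiratory genes), TTGGAG (Adr1, an activator of glycerol and ethanol use), CATGTG (Ino2 and Ino4), GCGGGG (the core of the site of Mig1, the glucose repressor) and the core of the carbon source response element (CCNT, 4 bases of any kind, then CCG).
STL1 chrIV:1507605-1507904 plus strand: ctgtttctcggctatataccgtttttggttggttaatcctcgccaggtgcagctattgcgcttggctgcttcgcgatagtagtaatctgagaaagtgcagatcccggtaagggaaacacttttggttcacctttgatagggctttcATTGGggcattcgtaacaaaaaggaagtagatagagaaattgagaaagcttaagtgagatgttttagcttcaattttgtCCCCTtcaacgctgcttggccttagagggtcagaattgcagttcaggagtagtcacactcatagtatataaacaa
GUT1 chrVIII:38609-38908 minus strand: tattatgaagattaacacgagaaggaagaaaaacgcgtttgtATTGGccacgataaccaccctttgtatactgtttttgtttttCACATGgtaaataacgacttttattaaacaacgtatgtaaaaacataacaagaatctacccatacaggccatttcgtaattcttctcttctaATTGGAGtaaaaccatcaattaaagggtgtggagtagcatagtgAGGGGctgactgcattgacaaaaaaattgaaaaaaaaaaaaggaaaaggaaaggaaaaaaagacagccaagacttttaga
GUT2 chrIX:53809-54108 minus strand: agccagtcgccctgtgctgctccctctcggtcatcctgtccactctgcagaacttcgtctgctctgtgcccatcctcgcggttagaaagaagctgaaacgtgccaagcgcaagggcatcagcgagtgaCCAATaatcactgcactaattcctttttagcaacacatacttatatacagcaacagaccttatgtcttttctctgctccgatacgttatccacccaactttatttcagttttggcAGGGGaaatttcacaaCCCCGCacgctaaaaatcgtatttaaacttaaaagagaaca
GPD1 chrIV:411425-411724 plus strand: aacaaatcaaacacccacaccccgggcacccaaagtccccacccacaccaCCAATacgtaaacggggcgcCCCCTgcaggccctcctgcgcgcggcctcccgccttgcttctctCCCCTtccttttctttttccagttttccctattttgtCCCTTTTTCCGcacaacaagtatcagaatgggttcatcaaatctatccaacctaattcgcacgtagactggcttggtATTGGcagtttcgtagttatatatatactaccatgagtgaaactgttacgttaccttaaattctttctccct

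All 4 windows hold at least 1 AGGGG and at least 1 CCAAT. GPD1 has 2 of each, at 330 and 286 and at 350 and 172 bases before the start codon, and GUT1 has 2 CCAAT, 1 of which shares bases with its TTGGAG at 223. The carbon source core occurs at 249 bases before GPD1, the Mig1 core at 141 bases before GUT2 and CATGTG at 316 bases before GUT1. Of all 6026 windows of the same kind, 23.5% hold AGGGG, 43.9% CCAAT, 11.3% TTGGAG, 9.24% CATGTG, 3.83% the Mig1 core and 5.03% the carbon source core. AGGGG also has 1 match each upstream of GPD2, which did not pass, GCY1, which was higher in oxidized cells, and DAK2, which was not tested, whereas DAK1 has 2 CCAAT and FPS1 a Mig1 core. The outer 94 bases of the GUT1 window belong to GOS1 and the outer 128 bases of the GUT2 window to IMP21. The matches are letters in a window and were not measured as binding sites.

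**Figure D3:**
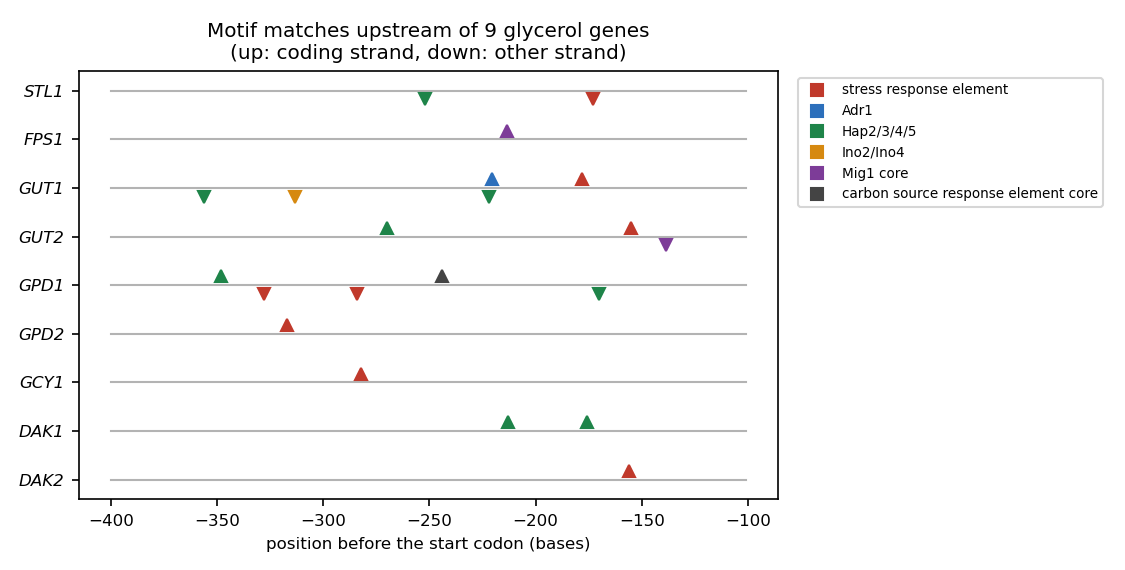
Position of motif matches in bases before the start codon (x axis) for the 9 genes (y axis). Triangles that point up are on the coding strand, those that point down on the other strand, and colours stand for the motifs in the legend. AGGGG, the stress response element, is found upstream of STL1, GUT1, GUT2 and GPD1 and also of GPD2, GCY1 and DAK2.

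For each member past the threshold in a redox comparison, the genes with the most similar pattern over the 12 libraries were found by Pearson r of log2(PPM + 10) among 4768 genes, as a description. These points share the libraries and the redox contrast. STL1 was most like YJL163C (r = 0.94), IDP3 (0.93), which encodes the peroxisomal isocitrate dehydrogenase, and LEE1 (0.91). GUT1 was most like ACO1 (0.90), the aconitase gene, DLT1 (0.90) and RTC2 (0.89). GUT2 was most like ECM15 (0.94), ACS1 (0.94), an acetyl-CoA synthetase gene, and ENA1 (0.93), a sodium pump gene. GPD1 was most like HYP2 (0.93), ECI1 (0.93), which acts in peroxisomal fatty acid oxidation, and RPL41B (0.93). GCY1 was most like MHR1 (0.93), COX7 (0.87), a cytochrome c oxidase subunit, and HXT7 (0.86), a high-affinity glucose transporter with a near-identical copy. Of these 15 genes, chosen for their likeness over the same libraries, 11 passed limma between oxidized and reduced cells at 48 hr and 10 at 72 hr, which is no independent support.

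In 5 lists of connected genes, 35 genes were tested. At 48 hr 1 of them was lower and 0 were higher in oxidized cells, beside 3.85% of all genes called in either direction. At 72 hr 4 were lower and 1 higher, beside 9.61%, and averaged over both ages 5 were lower and 1 higher, beside 11.9%. Downstream of Gpd1, the glycerol 3-phosphate phosphatase genes RHR2, which encodes Gpp1, and HOR2, which encodes Gpp2, were measured with YPR1, the paralog of GCY1, and 0 of 3 passed limma in any comparison. Averaged over both ages RHR2 had a log2 fold change of -0.03 (adjusted p = 0.94), HOR2 of 0.16 (0.66) and YPR1 of -0.08 (0.80). RHR2, at 478 ± 39.6 PPM in oxidized and 490 ± 63.4 PPM in reduced cells at 48 hr, was more abundant than any of the 9 members in those groups (SD, n = 3 each).

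Electrons from cytosolic NADH can also enter the respiratory chain through the external NADH dehydrogenases, beside the Gut2 shuttle. Of 5 genes of this list, NDE2, which encodes one of these enzymes, was lower in oxidized cells at both ages. It had 103 ± 67.1 PPM in oxidized and 350 ± 42.3 PPM in reduced cells at 48 hr, a log2 fold change of -1.92 (limma adjusted p = 9.5e-06), and 215 ± 83.3 PPM in oxidized and 572 ± 174 PPM in reduced cells at 72 hr, -1.39 (8.6e-04; SD, n = 3 each). NDE1, the other external enzyme, had 0.44 for the average and did not pass (adjusted p = 0.12). NDI1, the internal enzyme that takes NADH from the matrix, was higher in oxidized cells at 72 hr, with 460 ± 156 PPM against 181 ± 66.9 PPM in reduced cells (SD, n = 3 each) and a log2 fold change of 1.31 (limma adjusted p = 5.6e-05). At 48 hr NDI1 had -0.08 (adjusted p = 0.95), and the change of its redox difference with age was 1.38 (adjusted p = 0.026). This last call was lost without any one of 8 libraries, with values of 1.13 to 1.45 (adjusted p 0.056 to 0.21), namely replicates 1 and 2 of oxidized and 2 and 3 of reduced cells at 48 hr and replicates 1 and 3 of both at 72 hr, a check chosen after the data were seen and run for all genes of these lists that passed. The average of NDI1 over both ages was 0.62 (adjusted p = 0.0089, and 0.076 without oxidized 72 hr replicate 3). In reduced cells it was lower at 72 than at 48 hr by -0.92 (adjusted p = 0.021), a call lost without reduced replicate 2 or 3 of 48 hr or 1 or 3 of 72 hr (0.085 to 0.18). TPI1 and FBA1, around the branch point of glycolysis from which glycerol synthesis departs, had -0.04 and 0.02 for the average and did not pass.

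Among the regulators, the HOG pathway raises GPD1 and STL1 transcription under osmotic stress and its kinase cascade acts on existing proteins. Of its 16 genes, all tested, 0 passed at 48 hr (beside 2.43% of all genes lower and 1.42% higher) and 2 were lower in oxidized cells at 72 hr (beside 4.75%), STE50 (an adaptor of the kinase Ste11) with -1.50 and PTP3 (a phosphatase of Hog1) with -1.35 (limma adjusted p = 0.012 and 0.029). STE50 no longer passed at 72 hr without oxidized replicate 1 (-1.08, adjusted p = 0.15) or reduced replicate 2 (0.062), nor PTP3 without oxidized replicate 2 (-1.03, 0.19) or reduced replicate 1 (0.17) or 2 (0.19). Averaged over both ages STE50 had -1.08 (adjusted p = 0.0087, and 0.052 without reduced 48 hr replicate 1) and PTP3 -1.10 (0.0077). The median of the list over both ages was -0.26, beside -0.08 over all genes. HOG1 itself had 0.76 for the average (adjusted p = 0.13). Of 9 regulators of glycerol use, SIP4, a binding factor of the carbon source response element, was lower in oxidized cells at 72 hr, with 54.8 ± 11.8 PPM against 179 ± 22.4 PPM in reduced cells (SD, n = 3 each) and a log2 fold change of -1.56 (adjusted p = 0.0064, and 0.052 without reduced replicate 2). Its average was -1.28 (adjusted p = 0.0010). ADR1 and CAT8, whose products activate GUT1 and related genes, had -0.32 and 0.30 for the average, and neither passed (adjusted p = 0.40 and 0.44). At 48 hr ADR1 had 0.15. At 72 hr ADR1 had 79.3 to 100 PPM in oxidized and 139 to 198 PPM in reduced cells, and CAT8 118 to 140 PPM against 91.9 to 114 PPM. Neither gene overlapped between the groups at 72 hr (beside 15.2% of the genes tested lower and 10.9% higher), and neither passed limma at that age. Of the regulators of Fps1, ASK10 was at -0.94 for the average (adjusted p = 0.037, lost without replicate 2 or 3 of either group at 48 hr, oxidized replicate 3 at 72 hr or reduced replicate 1 or 3 at 72 hr, adjusted p 0.050 to 0.13) and RGC1 at -0.07 (0.86), and the difference between them was not tested. AQY1, AQY2 and YFL054C, the other channel genes of that list, lay below the filter.

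**Figure D4:**
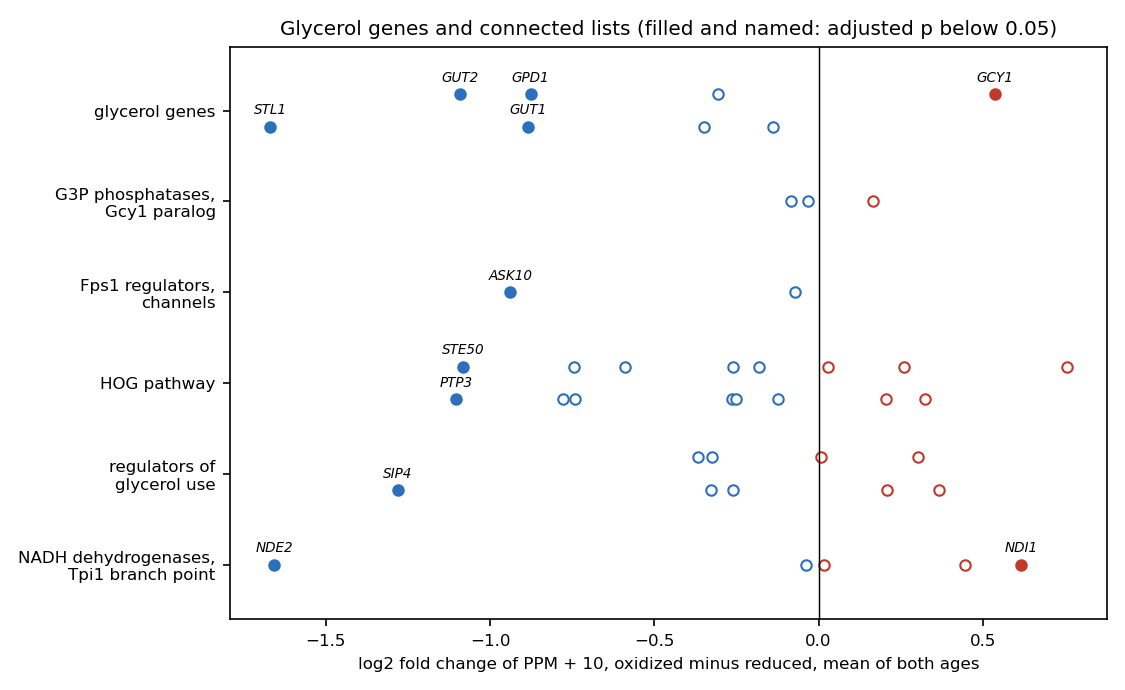
Log2 fold change of PPM + 10 between oxidized and reduced cells, averaged over both ages (x axis), for the 8 glycerol genes tested and the tested genes of 5 connected lists (y axis). Red points are higher and blue points lower in oxidized cells, and filled, named points had a limma adjusted p below 0.05. STL1, GUT2, GPD1 and GUT1 lie to the left of 0 and GCY1 to the right, and the 3 genes of the phosphatase list lie near 0.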

How the data were processed

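Oxidized and reduced yeast cells of 48 and 72 hr were measured by 3′ RNA-seq with molecular identifiers, 3 libraries a group, grouped by their labels. The authors demultiplexed with bcl2fastq 2.17 and aligned to sacCer3 with Bowtie2 under default settings, per the labels and methods, removed duplicates, counted the reads in each gene's window (350 bp before and 200 bp after its termination site) and divided by the library total. The deposited values are thus PPM, another unit than raw counts. Bowtie2's version, the gene annotation and whether strand was used are not given in the sources used here. The study tested counts after Anders and Huber. Because 553 genes stand in comma-separated blocks that the unit check cannot read, no count test was run. Whole reads, recovered for 100% of values within 0.02, describe depth and give the read counts and the ratios with counting intervals. They did not enter the limma tests.

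YCR013C and PYC1, broken over lines, were left out. Of 6645 genes, 5924 were matched to the R64 annotation. The 4776 genes that averaged 20 PPM or more were tested on log2(PPM + 10) with limma 3.58.1 in R 4.3.3 (lmFit, eBayes with trend, 4 group means, 45.1 prior degrees of freedom), with Benjamini-Hochberg adjustment within each comparison. The fit was also run on simulated counts in which all genes shared the same spread setting. That run does not bear on the spread of the real libraries or on the calls. For window overlaps, coding sequence ends stood in for termination sites. Upstream windows were read from the R64 genome, in place of the promoter windows first planned. Tables and figures used matplotlib 3.10.9, scipy 1.17.1, pandas 2.3.3 and numpy 2.4.6 in Python 3.11.15.

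The members and lists were chosen with earlier results of these data known. Named genes are the 9 members, list genes past the threshold (others named were chosen after their values were seen), the 3 most similar genes of each called member and genes with overlapping windows. The alternatives changed the pseudocount (1 or 50 PPM) and the filter (none, or an average of 50 PPM or more), or used median-of-ratios scaling, a replicate block, only the groups compared, at least 2-fold, and each library left out.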

Additional observations from a re-analysis of the deposited data

How the results depend on the processing

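Across the alternatives, 829 values kept their direction and side of the threshold, 29 lost the call, 1 gained it and 31 changed sign, all 31 among differences that had not passed. Every alternative that could be fitted kept the calls of STL1 at 48 hr and of GUT2 and GPD1 at 72 hr. It also kept those of STL1, GUT1, GUT2 and GPD1 averaged over both ages. The 2-fold criterion is not among these fits, and GPD1 at 72 hr (-0.97) fell short of it. So did the averages of GPD1 (-0.88) and GUT1 (-0.88). STL1 has no value under a mean of at least 50 PPM, which removes it. The count of members at 48 hr (4) was 2 with only the libraries of the groups compared, which leaves fewer libraries for the spread, and 1 to 4 with each library left out. With at least 2-fold as a further criterion the count at 72 hr (2) was 1 and that of the average (5) was 2. Left-out libraries gave 2 to 3 at 72 hr and 4 to 5 for the average. At 48 hr GUT1 also missed the threshold without a filter (limma adjusted p = 0.077), after median-of-ratios scaling (0.075) and with only the groups compared (0.10), as did GPD1 in the last (0.057), and the cause was not tested.

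Median-of-ratios scaling moved the median of all genes by 0.08 or less on the log2 scale. It turned GPD2 at 72 hr from -0.04 to 0.034 and GUT2 between the ages in reduced cells from 0.02 to -0.067. With libraries left out, sign changes occurred for GPD2 at 48 hr (-0.63 to 0.026) and 72 hr (-0.33 to 0.24), for GUT2 (-0.17 to 0.32), DAK1 (-0.38 to 0.10) and GPD2 (-0.45 to 0.23) between the ages in oxidized cells, and for STL1 (-0.28 to 0.15), GUT2 (-0.11 to 0.26) and GCY1 (-0.17 to 0.025) in reduced cells. For the change of the redox difference with age they occurred for GPD1 (-0.30 to 0.0094), GUT1 (-0.049 to 0.55), GUT2 (-0.20 to 0.30), FPS1 (-0.38 to 0.13), DAK1 (-0.065 to 0.42) and GPD2 (-0.093 to 0.59).

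Replicate numbers are shared between groups, but same-numbered libraries did not deviate together (r of -0.06 to 0.04 over 18 pairs, 4 of 12 libraries closest to their own number). With the replicate block the counts were 4 at 48 hr, 2 at 72 hr and 4 for the average, where GCY1 (0.54) had an adjusted p of 0.054, and the block changed no other call.

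Depth limits STL1 and DAK2 most, with 2 and 0 reads in oxidized cells at 48 hr. The sources used here call the replicates biological and do not say whether both gates were sorted from 1 culture.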
